A study of Mus musculus with 4 samples.

Results

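CHD4 binding intervals annotated as distal intergenic, meaning away from transcript starts and outside gene bodies, were examined in mouse cells labelled spermatogonial. They are the intervals that the deposited peak list annotates as distal intergenic, with summits that share 1 start and end joined into 1 interval. They number 457 of the 1849 intervals of the list, or 24.7% (exact 95% binomial interval 22.8 to 26.7, which covers counting error only), and hold 506 of its 2066 summits. All cells came from C57BL/6 mice with no genetic change or treatment named in the labels, and no age of the animals is given. In 2 samples an antibody against CHD4 was used and in 2 others an IgG antibody (rabbit anti-mouse, per the labels), with replicates numbered 1 and 2 in each group. The assay was CUT&Tag, in which the Tn5 transposase, tethered to an antibody on its target, cuts and tags the DNA beside it. The list is 1 call of CHD4 over IgG with no value for any single sample, so no error between replicates can be given. All values below describe this call, and intervals are not replicates of a condition. The label of the cells could not be set against marker expression, since a peak list holds none. The protocol starts from digested testes, and the labels do not say how spermatogonial cells were set apart from the other cells.

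CHD4 is the ATPase motor of NuRD, a complex that slides nucleosomes and removes acetyl groups from histones at promoters and enhancers. Enhancers are regulatory sequences that can act on a gene over a long distance, and many lie between genes. Spermatogonia are the dividing germ cells at the base of the testis tubule and include the stem cells that sustain sperm production. The target gene of a distal interval is not certain. The list gives each interval a transcript start and the distance to it, and the gene names below are that assignment only. In RefSeq the start of another gene can lie nearer.

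Most distal intervals had no sequence in the tables used here, but 17 of the 457 (3.72%, 2.18 to 5.89) touched the window from 250 bases before to 50 bases after a transcript start in RefSeq, and 9 contained such a start. The deposited annotation did not count these starts, which mostly belong to long non-coding RNAs. The 5 windows shown are those whose start lay in the interval and of which at least 250 of the 300 bases were covered, so they are stretches of DNA under a distal CHD4 interval. Sequences are from RefSeq (GRCm38.p6), read 5′ to 3′ on the strand of the transcript. Capitals mark matches to any of 6 motifs, searched on both strands. The first was TGANTCA, which covers the site of AP-1 factors, TGAGTCA or TGACTCA, and variants of it at the middle base. Another was TGACGTCA, the site of CREB factors. GATA factors bind the motif AGATAA, and the factor NF-Y binds the motif CCAAT in many promoters. The E-box motifs were CACGTG on the one hand and the variant CAGCTG on the other.
Gm40491, chr12:86833714-86834013, minus strand: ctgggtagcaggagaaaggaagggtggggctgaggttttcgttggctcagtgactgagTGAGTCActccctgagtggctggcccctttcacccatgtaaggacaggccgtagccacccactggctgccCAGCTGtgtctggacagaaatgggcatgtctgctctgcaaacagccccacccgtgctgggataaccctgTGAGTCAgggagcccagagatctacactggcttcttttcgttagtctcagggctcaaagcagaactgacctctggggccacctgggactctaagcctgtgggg
Gm35546, chr1:186587072-186587371, plus strand: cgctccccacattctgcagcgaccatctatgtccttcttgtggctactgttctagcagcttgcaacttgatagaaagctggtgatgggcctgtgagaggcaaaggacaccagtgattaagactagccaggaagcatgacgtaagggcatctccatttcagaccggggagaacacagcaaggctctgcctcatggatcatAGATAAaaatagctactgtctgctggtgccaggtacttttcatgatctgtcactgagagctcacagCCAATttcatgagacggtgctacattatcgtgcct
Gm38882, chr6:117879383-117879682, plus strand: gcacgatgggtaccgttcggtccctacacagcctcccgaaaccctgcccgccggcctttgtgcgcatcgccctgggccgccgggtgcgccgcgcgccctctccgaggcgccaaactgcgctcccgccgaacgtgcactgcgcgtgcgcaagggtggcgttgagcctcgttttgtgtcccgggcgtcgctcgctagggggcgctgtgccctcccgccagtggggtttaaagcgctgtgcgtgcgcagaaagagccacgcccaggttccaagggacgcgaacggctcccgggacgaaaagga
4930554I06Rik, chr19:21104460-21104759, plus strand: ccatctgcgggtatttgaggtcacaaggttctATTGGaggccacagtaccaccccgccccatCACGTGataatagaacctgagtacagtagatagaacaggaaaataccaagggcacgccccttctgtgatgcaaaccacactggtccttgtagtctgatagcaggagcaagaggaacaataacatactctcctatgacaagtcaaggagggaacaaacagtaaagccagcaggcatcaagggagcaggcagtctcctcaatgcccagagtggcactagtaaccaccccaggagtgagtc
Gm41309, chr15:38602237-38602536, minus strand: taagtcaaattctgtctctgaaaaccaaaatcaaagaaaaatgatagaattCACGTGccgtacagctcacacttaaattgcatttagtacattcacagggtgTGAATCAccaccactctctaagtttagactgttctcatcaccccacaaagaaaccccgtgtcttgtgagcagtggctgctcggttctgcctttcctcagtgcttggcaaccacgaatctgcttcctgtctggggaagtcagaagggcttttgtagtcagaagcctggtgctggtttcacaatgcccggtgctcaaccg

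The Gm40491 window lies in the largest cluster of distal intervals, described below with Irf2bpl, and was covered whole. It held 2 matches to TGANTCA, both TGAGTCA, at bases 59 and 198 counted from 1 at its 5′ end. Its interval had a fold of CHD4 over IgG of 3.55. The Gm35546 window was also covered whole, by an interval of fold 7.23 named for A730004F24Rik at 28.3 kb. It had an AGATAA and a CCAAT match and no TGANTCA. The Gm38882 window, within the interval named for Zfp239 at 16.3 kb with a fold of 3.65, was rich in G and C (69.7%) and held none of the 6 motifs. Bases 31 to 300 of the 4930554I06Rik window lay in an interval of fold 5.76 named for Tmc1, at 150 kb. Bases 1 to 255 of the Gm41309 window lay in an interval of fold 5.33 named for 2310043O21Rik, at 7.35 kb. TGAATCA, a variant of the AP-1 site, stood at base 103. Over all 19 windows touched, 3 of which belong to Gm33078 and were touched by 1 interval, named for Hand1, 4 (21.1%) held TGANTCA. The share was 7.81% of the 32817 start windows in the table. CAGCTG was in 6 of the 19 (31.6%) against 16.3%, and CCAAT in 5 (26.3%) against 37.4%. CACGTG was in 3 (15.8%) against 7.15%, AGATAA in 1 (5.26%) against 11.2%, and TGACGTCA in 0 against 1.79%. Many windows were covered only in part, and some matches lay outside the interval. A match within the interval was held by 4 windows for TGANTCA, 2 for CAGCTG, 3 for CCAAT, 2 for CACGTG and 1 for AGATAA. The windows touched had a median G and C content of 53%, against 52.7% over all windows and 61.2% over the 436 windows touched by promoter intervals. These are matches of letters in 19 windows and were not tested. The windows touched mostly belong to long non-coding RNAs, and the motif shares over all windows were not matched for that.

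Distal intervals were 184 to 1174 bp wide, with a median of 284 bp. Their median fold of CHD4 over IgG at the summit, which is the authors' value from the peak caller, was 4.88, between quartiles of 4.2 and 5.84 and extremes of 2.51 and 13.6. The number of CHD4 fragments at the summit, recovered from the deposited fold and p, had a median of 25, between quartiles of 18 and 37 and extremes of 12 and 129. The IgG background expected there, on the scale of the IgG library, had a median of 1 fragment, with quartiles of 0.554 and 2.33. In 146 distal intervals (31.9%) fewer than 20 fragments supported the peak, against 23.6% of the 1392 other intervals. At 44 distal intervals (9.63%) the IgG expectation was the lowest of the list, 0.346 fragments, against 6.11% of the others. A q of 0.01 or less was reached by 347 distal intervals, or 75.9%, and by 77.3% of all intervals, so the distal calls were about as strong as the list as a whole. In 42 of the 457 (9.19%) more than 1 summit was called, against 10.1% of the others.

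In median fold the distal intervals lay between the intronic and the promoter intervals. The median fold was 5.13 in the 493 intronic intervals and 4.32 in the 631 promoter intervals within 1 kb of a start, beside the distal 4.88. Against all other intervals the distal median was higher by 0.183, but with the promoter classes left out of the others the difference turned to −0.211. The median IgG expectation was 1 fragment in distal and in intronic intervals and 2.4 at promoters. At a low IgG expectation a peak needs a higher fold to reach the same q. The medians were therefore also set side by side in bands of that expectation, where the order of the classes varied. At an expectation of at most 0.5 fragments, the median fold was 5.52 in 100 distal intervals and 5.52 in 236 others. Between 0.5 and 1 fragments, the band with most distal intervals, it was 5.06 in 133 distal intervals and 5.36 in 308 others. Between 1 and 2 fragments it was 5.05 in 93 distal intervals, 4.77 in 304 others and 4.55 in the 122 promoter intervals among these. Between 2 and 4 fragments it was 4.29 in 81 distal intervals and 4.29 in 264 others, and above 4 it was 3.55 in 50 and 3.27 in 280. Across these bands, from the lowest, the intronic medians were 5.74, 5.38, 5.02, 4.33 and 3.45. The promoter medians were 5.45, 5.26, 4.55, 4.22 and 3.21. The distal median lay below both between 0.5 and 1 fragments, and above both between 1 and 2 and above 4. In the other bands it lay between them. The part of IgG in the difference between classes was not tested. Of the distal intervals 10.9% had an expectation above 4, against 32.6% of promoter intervals. No test was made, because intervals of 1 call are not independent samples.

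**Figure D1:**
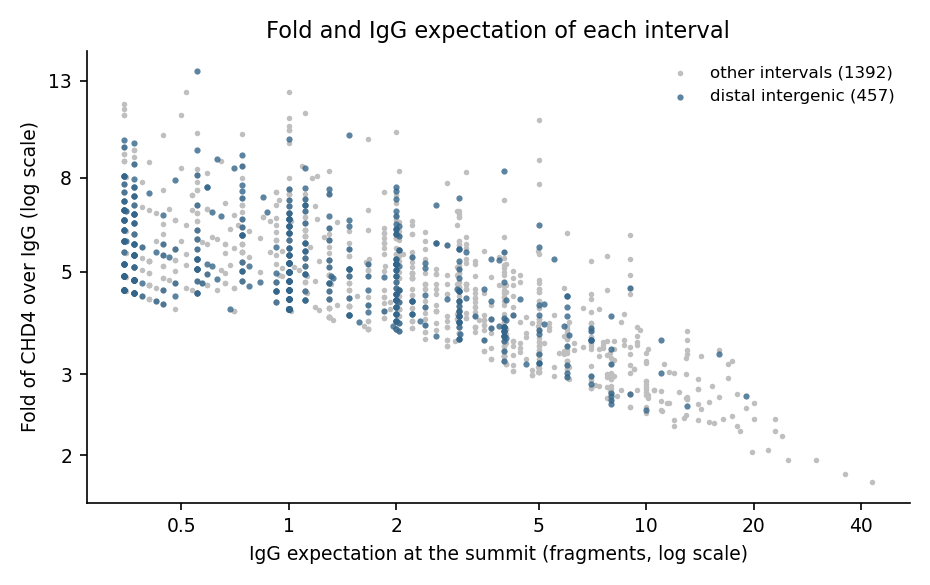
Each point is an interval, with the IgG expectation at its summit (fragments, log scale) on the x axis and its fold of CHD4 over IgG (log scale) on the y axis; the 457 distal intervals are blue and the 1392 others grey. Folds fall as the IgG expectation rises in both groups, and few distal intervals lie at the right, where 10.9% exceed an expectation of 4 fragments.

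The 10 distal intervals of highest fold lay near genes of varied function. First was the interval 13.8 kb downstream of the start of Arf6, a small GTPase, at chr12:69385995-69386429, with a fold of 13.6 from 47 CHD4 fragments (exact 95% Poisson interval 34.5 to 62.5) over 0.554. It stood apart from the rest: the second, 22.9 kb from Gm3716, had 9.92 from 55 fragments. A further Arf6 interval, in 1 cluster with the first and 16.3 kb from the Arf6 start, had a fold of 5.01 from 18 fragments. Nyap1, an adaptor of PI3 kinase in neurons, followed with 9.72 from 43 fragments at 19.9 kb. The interval of 1700061I17Rik (9.66, at 62 kb) lay in a gene desert, with Palmd 171 kb away on one side and Plppr4 179 kb on the other. Atf7ip, a partner of the histone methyltransferase SETDB1, had an interval of fold 9.5 at 6.45 kb upstream that overlapped the RefSeq non-coding RNA gene Gm44140. The others were named for 7630403G23Rik (9.34), the sphingosine phosphate phosphatase gene Sgpp1 (9.2), the MAP kinase phosphatase gene Dusp4 (8.96), Tnfsfm13 (8.78) and the proteasome ATPase gene Psmc1 (8.56). Apart from Arf6, Gm3716 and Nyap1, these rested on 25 to 34 fragments, over an IgG expectation of at most 0.738. 

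By q the order changed, because q also weighs the number of fragments. The most significant distal interval was that of S100a11, a calcium-binding protein gene, at 16.5 kb (chr3:93537029-93537637), with a −log10 q of 20.2 and a fold of 8.26 from 94 fragments over 4. Arf6 and Gm3716 followed with 19.1 and 14.5. Ahnak, a giant scaffold protein gene, had 13.6 from 86 fragments over 5, at 5.75 kb upstream. Rdm1, of the RAD52 motif family, had 12.1 from 105 fragments over 9, with a fold of only 4.6. Nyap1 had 11.9. Hjv, the hemojuvelin gene of iron control, had 11.8 from 65 fragments over 3, and its neighbour in 1 cluster, named for BC107364, had 11.3 from 77 over 5. Lnx1, a ubiquitin ligase gene, had 10.5 at 74.7 kb from 56 fragments, and 1700061I17Rik had 10.5 from 28. All of these but the 1700061I17Rik interval held more fragments than the promoter median of 34. The widest distal intervals, of 1174, 1030 and 959 bp, were those named for Hnrnpa3, an RNA-binding protein gene, Vapa, of membrane contact sites, and Gadd45b, a stress response gene. They held 3, 2 and 4 summits.

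By distance, most distal intervals lay well within 100 kb of a start. The median distance to the assigned start was 26.2 kb, with quartiles of 11.9 and 59.3 kb. In all 308 of the 457 (67.4%) were within 50 kb, and 72 (15.8%, 12.5 to 19.4) were more than 100 kb away. Upstream of the assigned start lay 261 (57.1%, 52.4 to 61.7) and downstream 196. The sides differed near the gene: between 3 and 10 kb there were 78 upstream and 21 downstream, between 10 and 50 kb 105 and 104, and between 50 and 100 kb 44 and 33. A downstream interval has to lie past the gene's end to be intergenic, so the length of the gene itself sets how near it can be. Measured from the gene's end, downstream intervals lay a median of 26.6 kb away, and 42 of them within 10 kb. The median distance to the start was 19.3 kb upstream and 32.4 kb downstream, and the median folds were 4.8 and 4.95.

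**Figure D2:**
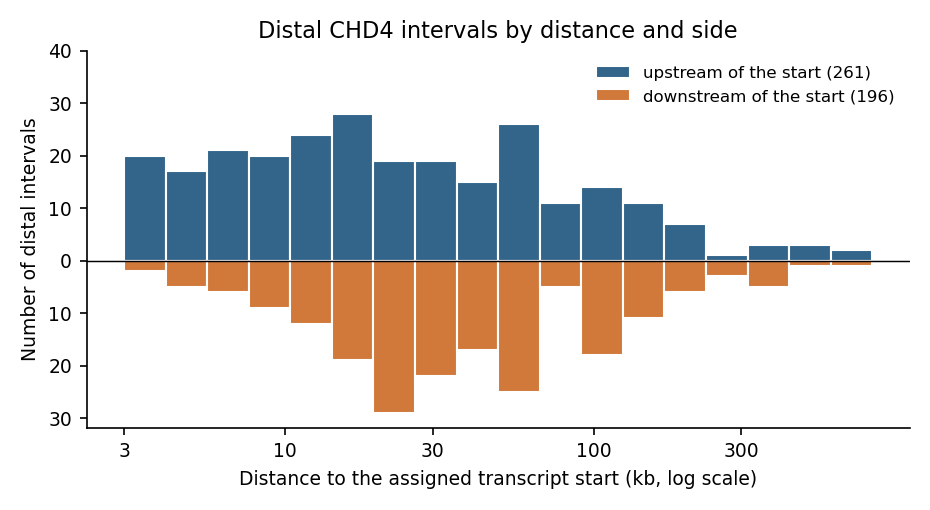
Number of distal intervals (y axis) by distance to the assigned transcript start (kb, log scale, bins of equal width on that scale); blue bars are upstream and orange bars, drawn downward, downstream. Below 10 kb upstream intervals prevail, 78 against 21, and from 10 to 50 kb the sides are near equal, 105 against 104.

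The median fold did not drop with distance, while the median number of fragments did. Only called peaks are in the list, and a low IgG expectation needs a higher fold. The level fold therefore cannot show whether binding strength was kept with distance. The 99 intervals between 3 and 10 kb had a median fold of 4.48 from 30 fragments over an IgG expectation of 2. The 209 between 10 and 50 kb had 4.95 from 27 over 1, the 77 between 50 and 100 kb had 5 from 23, and the 67 between 100 and 500 kb had 4.8 from 20. The share with a q of 0.01 or less was 76.8%, 79.9%, 79.2% and 59.7% in these bins, beside 77.3% of all intervals. The class begins 3 kb from a start. The 64 intervals just on the other side of that edge, 2 to 3 kb from a start and annotated as promoter, had a median fold of 4.85 from 28 fragments over 1.7. Just inside it, the nearest upstream intervals were those of Osgin1, an oxidative stress response gene, at 3.1 kb with a fold of 4.76, Rab12, a small GTPase, at 3.12 kb with 4.14, and the adhesion adaptor gene Bcar1 at 3.13 kb with 5.38. In RefSeq the Osgin1 interval overlaps Osgin1 itself, and the Jund interval below overlaps the neighbouring gene Iqcn. The nearest downstream were those of Jund, an AP-1 subunit, at 3.79 kb with a fold of 5.53 from 51 fragments, Borcs6 at 4.02 kb with 3.82, and Vim, the intermediate filament vimentin, at 4.2 kb with 5.52 from 16 fragments.

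The most remote intervals named here lay 385 to 738 kb from the assigned start, though another gene could be nearer. A pair named for the pseudogene B230303A05Rik lay 716 and 738 kb upstream of it on chromosome 13, with folds of 4.14 and 7.62. They sit between Inhba, the activin A subunit, and Sugct, which is nearer (117.7 and 95.8 kb to its boundary). Rgmb, a co-receptor for bone morphogenetic proteins, had an interval of fold 4.14 at 510 kb. Smarca2, the SWI/SNF ATPase BRM, had 1 of 4.51 at 464 kb, between Dmrt2, 462 kb away, and Smarca2 itself. Adamts5, a protease of the matrix, had 1 of 4.88 at 446 kb. Downstream, the farthest was named for A830082K12Rik, at 607 kb, with a fold of 6.68 from 19 fragments and Nr2f1, a nuclear receptor gene, as the nearest protein-coding neighbour. Tmem38b followed at 516 kb with 7.54 from 38 fragments. Pantr1, a non-coding RNA beside the neural factor gene Pou3f3, had 1 at 408 kb with 4.57, Adgrl2, a latrophilin receptor gene, 1 at 394 kb with 4.51, and 1700129C05Rik 1 at 385 kb with 6.23. Those of Pantr1, Adgrl2, Adamts5 and Smarca2 rested on 12 to 14 fragments, at or near the lowest number in the list. Their −log10 q was 1.93 to 1.94. By q the fold 4.14 intervals of Rgmb and B230303A05Rik were weaker still. Each had 1.35 from 17 fragments over 1, near the lowest distal value of 1.33. The other remote intervals had higher values: A830082K12Rik 5.03, 1700129C05Rik 5.27, the B230303A05Rik interval of fold 7.62 6.23, and Tmem38b 8.06.

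Most distal intervals lay alone and some in groups. Another interval of any class lay within 10 kb of 105 of them (23%, 19.2 to 27.1), against 17.2% of all other intervals, 19.3% of intronic and 13.6% of promoter intervals. The shares were not tested against each other, since neighbours are not independent. The nearest neighbour within 10 kb was itself distal in 88 of the 105 cases and a promoter interval within 1 kb in 9. Chained at gaps of up to 10 kb, the 457 intervals formed 408 loci: 369 single intervals, 33 pairs and 6 clusters of 3 or more. The 39 pairs and clusters had a median span of 3.8 kb, and 31 of them were given to 1 gene throughout. Clustered intervals had a median of 31.5 CHD4 fragments over an IgG expectation of 2, and single ones 24 over 1. Their median folds were 4.8 and 4.88.

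The largest cluster lay between Lrrc74a and Irf2bpl on chromosome 12. Irf2bpl, which encodes a nuclear protein of the IRF2-binding family, was named for 5 intervals within 9.8 kb (chr12:86824887-86834685), 50.1 to 59.6 kb past its start. Their folds were 3.63, 3.55, 4.29, 3.55 and 4.89 in order of position, from 40, 64, 28, 64 and 24 fragments. The last was at the distal median of 4.88 and the others were below it. A further 3 intervals of the same stretch were named for Lrrc74a, a leucine-rich repeat protein gene, with folds of 3.55, 2.73 and 3.01 from 64, 55 and 82 fragments. Chained at gaps of 50 kb, the 8 intervals formed 1 group of 47.6 kb with no interval of another class in it, and no other group had more than 4. The IgG expectation at these 8 sites ranged from 1.31 to 11 fragments, beside distal quartiles of 0.554 and 2.33. RefSeq lists the non-coding RNA genes Gm32806, Gm40491 and Gm51955 in the cluster, and the window of Gm40491 is the sequence with 2 TGAGTCA matches shown above. Neither Irf2bpl nor Lrrc74a was named for an interval of another class.

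The next clusters held 4 intervals each. Between the co-chaperone gene Dnajb12 and Ddit4, which encodes the stress-induced mTOR inhibitor REDD1, 4 intervals lay within 11 kb (chr10:59908931-59919963). In order toward Ddit4 their folds were 5.56, 5.15, 4.79 and 6.37, from 37, 19, 20 and 29 fragments. The last 3 were given to Ddit4, at 35.8, 33.3 and 31.9 kb. The cluster of Smndc1, a splicing factor gene, and the non-coding RNA Mirt1 held 4 intervals within 12.8 kb (chr19:53408567-53421409), of folds 5.19, 4.43, 4.22 and 3.16. The interval of lowest fold had the most fragments, 64, over an IgG expectation of 8, and the one of 4.43 had 12 over 0.388. The protein-coding gene on the other side of this cluster is Dusp5, a phosphatase of ERK, 108 kb away. It was named for an interval of its own, with a fold of 3.57, at 26.1 kb past its start.

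The remaining clusters had 3 intervals each. Between Clec10a, a lectin of macrophages, and the transporter gene Slc16a11 the folds were 6.63, 4.33 and 4.91 within 9.36 kb. Ccnl1, a cyclin of splicing, had 3 within 4.52 kb, with folds of 5, 5.3 and 3.89, beside 3 intervals annotated as intronic and given to the same gene. Between BC107364 and Hjv, 3 intervals within 3.33 kb had folds of 5.67, 4.14 and 7.22. The outer ones held 77 and 65 fragments and the middle one 17, so the cluster is a pair of strong peaks around a weak one. Other genes named for 3 or more distal intervals had them farther apart. The transcript 4930431P22Rik had 4, with folds of 7.62, 7.92 and 6.5 at 15.3 to 29.2 kb and 4.57 at 123 kb. They lay between Serp2 and Lacc1, each at least 138 kb away. Rps14, a protein of the small ribosomal subunit, had 3 on chromosome 18 at 11.1 to 22.3 kb, with folds of 3.45 to 6.29. Txnl1, a thioredoxin-like protein gene, had 3 at 59.6 to 143 kb, with folds of 3.76 to 6.07.

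**Figure D3:**
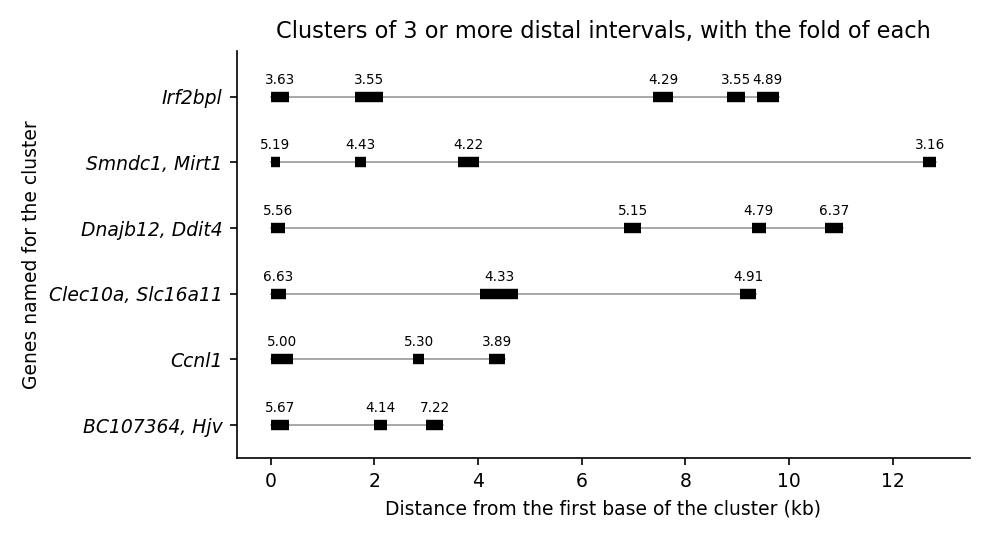
Black bars are distal intervals drawn to scale along each cluster of 3 or more (x axis, kb from the cluster's first base; rows are clusters, with the genes named for them), and the number above each bar is its fold of CHD4 over IgG. The 5 Irf2bpl intervals range from 3.55 to 4.89, and the 2 strong BC107364 and Hjv intervals of 5.67 and 7.22 flank 1 of 4.14.

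In RefSeq, 99 of the 457 distal intervals (21.7%, 18 to 25.7) overlapped a gene of some kind by at least 1 base, although the deposited annotation places them between genes. In 80 this was a long non-coding RNA gene and in 12 a protein-coding gene, among them Osgin1, Arhgef15, Ripor2, Calr4 and Txndc2, which were also the genes they were named for. Transfer RNA genes were overlapped by 9 distal intervals (1.97%, 0.904 to 3.71) and by 10 of the 1392 others (0.718%). Those 9 were named for Aurkb (2 intervals), Mir1983 (2), Trim27, Trim7, Fcgr4, Cfap126 and Shf, with folds from 3.02 to 7.48 and a median of 4.14, and the named gene is not the one overlapped. The strongest of them, named for Trim27, a tripartite motif protein gene on chromosome 13, held 50 fragments over 2 and covered 3 transfer RNA genes. No distal interval overlapped a microRNA hairpin (0 of 457, exact upper bound 0.804%).

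By the start given in the list, 390 genes were assigned a distal interval: 302 protein-coding genes, 66 long non-coding RNAs, 11 microRNAs, 7 transcribed pseudogenes and 4 small nucleolar RNAs. Of these, 334 had 1 interval, 48 had 2 and 8 had 3 or more. For the 354 intervals given to a protein-coding gene, that gene had the nearest boundary of any protein-coding gene in 306 (86.4%, 82.4 to 89.8), and was one of the genes on either side in 346. The 302 protein-coding genes are 1.39% of the 21779 in the gene table, which is the background for the gene groups that follow. These groups are described by counts and were not tested, and the background was not matched for the space between genes. They were written with earlier results from this list known.

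Of 20 stress-response and AP-1 factors 5 were named (25%), against 1.39% of all protein-coding genes. Fos, Fosb and Jund encode subunits of AP-1, a transcription factor that growth signals and stress induce. The Fos interval, 22.9 kb downstream, had a fold of 4.8 from 13 fragments (6.92 to 22.2) over 0.369. The Fosb interval, 9.68 kb upstream, had 3.59 from 40 fragments over 4.06, and the Jund interval is described above. Gadd45b, which senses stress and promotes DNA demethylation, had 2 intervals, at 8.24 and 9.67 kb, of folds 4.26 and 3.55 from 59 and 97 fragments. Klf6, a zinc finger factor of the early response, had 2, at 6.6 and 329 kb, of folds 4.77 and 4.14 from 17 fragments each. With a q of 0.01 or less 4 of the 20 were named, against 1.06% of all genes; Fos did not reach it. Of the GATA, SOX and KLF factors 3 of 37 were named (8.11%), all KLF: Klf3 at 40.1 kb (fold 4.12), Klf6, and Klf9 at 6.88 kb (4.24).

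The lists on germ cell stages, which also hold signals from other cells, each had at most 2 genes named. These lists are short, and their shares are given beside 1.39% of all protein-coding genes. Of 27 genes of undifferentiated spermatogonia and self-renewal, 2 had a distal interval (7.41%). Nanos3, an RNA-binding protein that keeps germ cells alive, had 1 at 6.8 kb upstream with a fold of 3.4 from 69 fragments (53.7 to 87.3) over an IgG expectation of 8. Dusp6, a phosphatase that dampens ERK, had 1 of 6.29 from 27 fragments at 31.5 kb past its start. Of 13 genes of spermatogonial differentiation, 1 was named (7.69%). It was Kitl, the ligand of the KIT receptor that Sertoli cells make, with an interval of fold 6.5 from 28 fragments 108 kb upstream. Of 32 meiosis genes 1 was named (3.1%), Meioc, at 19.4 kb upstream with a fold of 5.61 from 50 fragments. Of 28 spermatid and sperm genes 1 was named (3.57%), Txndc2, at 5.13 kb with 6.61 from 33 fragments. None of 22 pan-germ cell and piRNA genes was named, none of the 16 NuRD and CHD family genes, and none of 24 apoptosis and p53 genes. At a background of 1.39%, lists of this size are too short for a count of none to tell.

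Marker genes of other testis cells, which a digested testis can also contain, were named as well. Of 15 genes of peritubular, endothelial and macrophage cells 3 had a distal interval (20%), beside 1.39% of all protein-coding genes. Kdr, the VEGF receptor of endothelium, had 1 of fold 7.73 from 29 fragments at 11.9 kb upstream. Acta2, smooth muscle actin, had 1 of 5.61 from 18 fragments at 15.9 kb, and Cdh5, the cadherin of endothelial junctions, 1 of 4.57 from 12 fragments at 99.3 kb. With a q of 0.01 or less 2 of the 15 were named, beside 1.06% of all protein-coding genes, and Cdh5 did not reach it. Of 21 Sertoli cell genes 1 was named (4.76%), Inhbb, an inhibin subunit, at 17.3 kb with 5.07 from 45 fragments. None of 10 Leydig cell genes was named, in a list too short for that to tell. Of 20 factors of somatic lineages 1 was named (5%), Runx1, of blood formation, at 138 kb with 5.08 from 27 fragments. The part of other cell types in these intervals was not tested.

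The remaining gene groups had from 0 to 6 members named. Of 397 Zfp zinc finger genes 6 were named, or 1.51%, beside 1.39%, with folds from 3.65 at Zfp239 to 6.5 at Zfp960, where the interval touched the start window of the RefSeq gene Gm51425, which lies nearer than Zfp960. Growth factor, PI3K and MAPK genes were named in 1 of 29 cases (3.45%). This was Pik3r1, a regulatory subunit of PI3 kinase, at 111 kb with a fold of 3.17. Cell adhesion and guidance genes were named in 1 of 34 cases (2.94%), Cdh5, and ribosomal protein genes in 1 of 81 (1.23%), Rps14. Of 1461 olfactory and vomeronasal receptor genes 1 was named, Olfr1423, at 26.2 kb with 3.96 from 41 fragments, a share of 0.0684%. No retinoic acid pathway gene (0 of 18), Hox gene (0 of 39) or replication-dependent histone gene coding for protein (0 of 67) was named for a distal interval.

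Of the 390 genes with a distal interval, 30 (7.69%) were also named for a promoter interval within 1 kb and 67 (17.2%) for an interval of any other class. For intronic intervals the first share was 8.25%, 35 of 424 genes. In the 30 genes with both, the fold was higher at the distal interval in 20 and lower in 10. The median was 4.92 at distal intervals and 3.91 at promoters. The promoter had the higher IgG expectation in 22 of the 30, with medians of 4.21 against 1.66 fragments, and more CHD4 fragments in 21. Of the 20 genes with the higher distal fold, 18 had the higher IgG expectation at the promoter, so the part of IgG in this pattern cannot be told apart from that of CHD4. The widest gap was at Irf2bp2, a paralogue of Irf2bpl: a fold of 8.07 from 23 fragments over 0.346 at 98.8 kb upstream, and 2.32 from 68 fragments over 12 at the promoter. At Vapa the values were 6.93 and 2.9, and at Ywhaz, a 14-3-3 protein gene, 5.15 and 3.34. The opposite order was clearest at Akap13, an anchoring protein for kinases, with 4.19 at 57.6 kb upstream and 7.36 at the promoter. At Kif2c, a kinesin that shortens microtubules, the distal interval held 129 fragments over 16, the most of any distal interval, with a fold of 3.31, and the promoter 17 over 1 with 4.14.

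**Figure D4:**
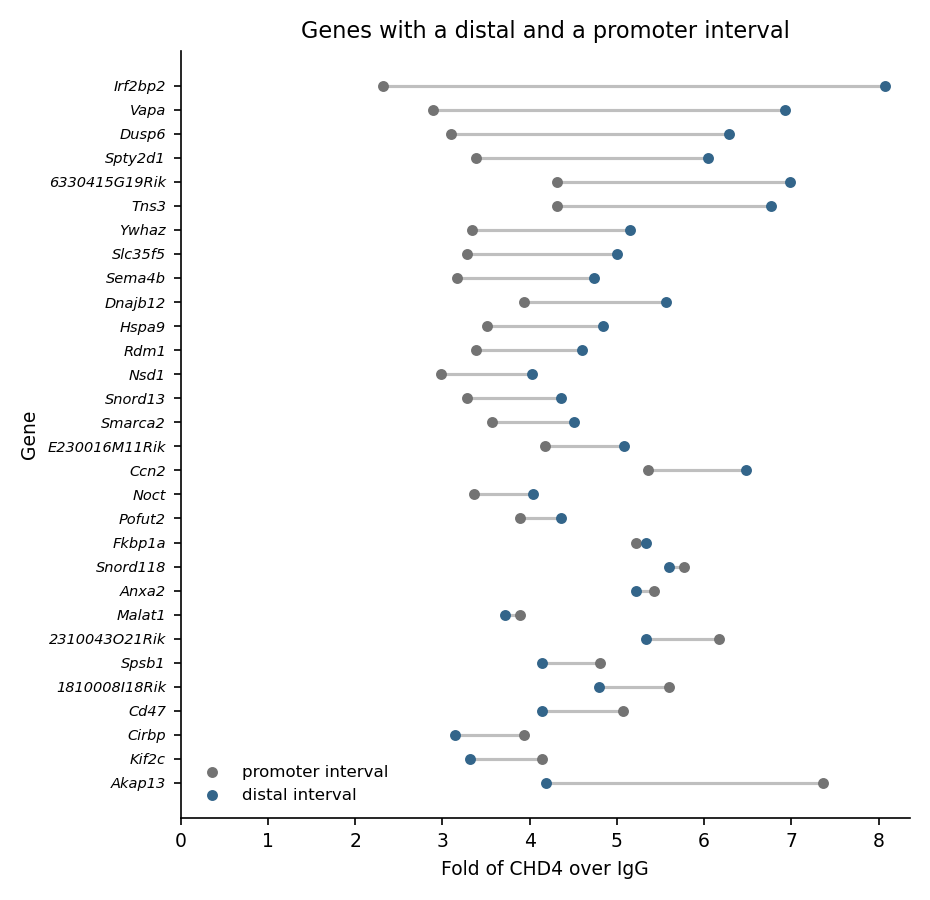
Fold of CHD4 over IgG (x axis) at the distal interval (blue) and the promoter interval within 1 kb (grey) of each of the 30 genes that have both (rows; the interval of highest fold where a gene has several). The distal point is to the right in the upper 20 genes, with the widest gap at Irf2bp2, 8.07 against 2.32, and to the left in the lower 10.

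By chromosome and length, distal intervals were densest on chromosome 19, with 21, or 3.62 per 10 Mb between its outermost protein-coding genes, and on chromosome 11, with 36, or 3.03. Chromosome 16 had the fewest per length of the autosomes, 10, or 1.06. Per 100 protein-coding genes the order differed: chromosomes 12, 13 and 18 led with 4.28, 3.74 and 3.33, chromosome 19 had 2.98 and chromosome 11 had 2.25, and the lowest autosome was chromosome 7 with 1.19. The X chromosome was lowest of those with a distal interval on both scales. As a share of a chromosome's own intervals they ranged on autosomes from 15.6% on chromosome 16 to 34.9% on chromosome 12, where the Irf2bpl cluster lies. The X chromosome held 3, or 0.179 per 10 Mb and 0.312 per 100 genes, and the Y chromosome none. These densities were not adjusted for the number of copies of each chromosome in male cells. The X intervals were named for Gpc4, a cell surface glypican gene (fold 5 at 72.5 kb), Hprt, of purine salvage (4.48 at 16.6 kb), and Gm8817 (6.72 at 62.7 kb). They held 21, 29 and 29 fragments. Distal intervals were 3 of the 19 on X, or 15.8%, beside 24.7% of the whole list.

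**Figure D5:**
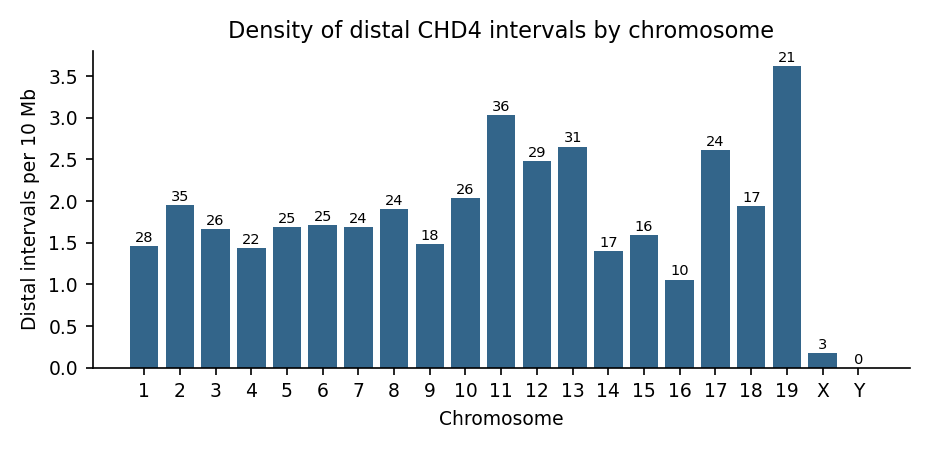
Distal intervals per 10 Mb of each chromosome (y axis, from the first to the last protein-coding gene; x axis, chromosome), with the number of intervals above each bar. Autosomes range from 1.06 on chromosome 16 to 3.62 on chromosome 19, and X has 0.179.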

How the data were processed

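CUT&Tag was done on 2 CHD4 and 2 IgG samples. The submitters' processing notes name MACS2 2.1.2, Bowtie2 2.2.5, Trim Galore 0.5.0 and build mm10. Sources used here do not state how duplicates and replicates were handled or peaks annotated. The deposited list gives each peak a fold (a ratio of CHD4 to IgG signal), its log2, and, in columns whose headers were lost, −log10 p and −log10 q; the deposited score is 10 times the −log10 q without decimals. One peak was read as the header and is not analysed. Where an interval had several summits, that of highest fold gave its values. Genes were matched by identifier to RefSeq GRCm38.p6, which shares mm10 coordinates: of 1427 intervals whose gene has a start window, 791 have an assigned start within 100 bases of a RefSeq start.

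The list gives no depth. CHD4 fragments and IgG expectation were recovered at each summit by taking the fold as scaled CHD4 fragments plus 1 over the expectation plus 1, and p as a Poisson tail. A scale of 0.429 gave 1 whole number at all 2066 summits, within 0.0005 fragments. Run on 185 summits simulated with this same formula, the recovery returned 100% of the fragment numbers. That checks the solving only, not the formula. Poisson and binomial intervals cover counting error only.

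No test between groups was possible or made. Intervals and genes are named by rule: highest fold and q, distance extremes, widest, clusters and genes of 3 or more, list members, X intervals, and those on transfer RNA genes or RefSeq starts. Of the last, only some are named. The members, lists and rule were chosen with earlier results of these data known. Motifs, planned around summits, were searched only in RefSeq start windows. Computations used Python 3.11.15, pandas 2.3.3 and scipy 1.17.1.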

Additional observations from a re-analysis of the deposited data

How the results depend on the processing

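Of 26 alternatives to 11 results, 21 left the value within its 95% interval, or a count within 1.5 times. With a q of 0.01 or less, the median fold of distal intervals was 5.21 and the share over 100 kb from a start 12.4%. The share with a neighbour was 16.8% at a gap of 5 kb and 38.1% at 50 kb, as a narrower or wider gap must give. The difference in median fold from other intervals reversed to −0.211 with the promoter classes left out. No paired analysis was possible because the list holds no value for a single sample, and for the same reason no replicate could be left out. Chosen after seeing the data were the alternatives to the number of genes, of AP-1 factors and of promoter pairs, the median fold without intervals on tRNA genes, and the upstream share without intervals overlapped by their own gene. Low fragment numbers limit single intervals: 12 fragments have an exact 95% interval of 6.2 to 21.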

Other observations

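Dual-specificity phosphatases, which switch off MAP kinases, appeared several times among the genes of distal intervals. This group and the next were chosen after the names were seen and were not tested. Of 24 Dusp genes in the table, 5 were named, with 6 intervals, and 3 of the 5 with a q of 0.01 or less, beside 1.39% and 1.06% of all protein-coding genes. Dusp4 had the highest fold, 8.96 from 34 fragments at 53.9 kb upstream. Dusp10 had intervals on both sides, of folds 5.64 at 91.6 kb upstream and 4.11 at 50.4 kb downstream. Dusp1, of the early stress response, had 1 of 4.36 from 18 fragments at 6.17 kb upstream. Of the 3 Gadd45 genes 2 were named, Gadd45b with 2 intervals and Gadd45g with 1 of fold 5.21 from 30 fragments at 122 kb.

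In the Lrrc74a and Irf2bpl stretch, 3 of the 8 intervals had the same recovered value, 64 CHD4 fragments over an IgG expectation of 7, 1 of them named for Lrrc74a and 2 for Irf2bpl. Over the whole list 4 of 1849 intervals had it. Equal values were common: 259 of the 457 distal intervals shared theirs with another, and the commonest pair of values was held by 18. Whether these 3 sites share sequence was not tested.

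Small nucleolar RNA genes were named for 4 distal intervals, at 5.37 to 15.7 kb past their starts: Snord118 (fold 5.6), Snora34 (4.54), Snord13 (4.36) and Snora31 (4), with 17, 40, 18 and 63 fragments.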
